A study of Homo sapiens with 2 samples.

Results

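The 10 genes described here are ATP1B1, ZFP36L1, OAT, MAP3K8, CXCL6 and ID1, chosen as genes induced by Notch1, and SLC27A2, ENDOD1, CCNG2 and NEDD4L, chosen as genes repressed by it. The choice came from a paper on Notch1 in prostate cancer and its tumour cells, so neither the responses to Notch1 nor the role of these genes in tumours was measured in the samples of this series. The array carried probes for all 10, out of 19740 genes that could be named by a RefSeq accession. RWPE-1, a human line of prostate epithelium that is not cancerous, was transfected with 30 nM of pre-miR-424 (the precursor of the microRNA miR-424) or of a control precursor, negative control #1. Both RNAs were hybridised together on 2 Agilent two-colour arrays. On the array with normal labelling the pre-miR-424 RNA carried Cy5 and the control RNA Cy3, and on the second array the dyes were swapped. The arrays are technical replicates of 1 comparison, so no p-value was computed, and the difference between them covers labelling and hybridisation error only. One cell line, one dose and an unstated time after transfection limit the comparison as a model. As these are bulk RNAs, a change in the share of cells of one kind and a change in RNA per cell cannot be told apart.

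Notch receptors are cleaved when a ligand on a neighbouring cell binds them, and the released intracellular part enters the nucleus, where it joins the DNA-binding protein RBPJ and turns on target genes. In epithelia the pathway governs the balance between growth and differentiation, and its effect on tumours differs between tissues. MicroRNAs act at another level, by pairing of their seed (bases 2 to 8) with messenger RNAs, which lowers the stability or the translation of these. The sequences below, from RefSeq (GRCh38.p14), are shown because the seed is what the transfected precursor brings into the cells. Capitals mark the seed. The labels do not say which arm of the precursor was active.
hsa-miR-424-5p: cAGCAGCAauucauguuuugaa
hsa-miR-424-3p: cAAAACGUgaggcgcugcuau
hsa-miR-16-5p: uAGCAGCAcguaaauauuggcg
hsa-miR-15a-5p: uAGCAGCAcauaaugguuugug
The 5p arm of miR-424 has the same seed as miR-16, miR-15a, miR-15b, miR-195, miR-497 and miR-6838, whereas the 3p arm has another one. Target sites in the messenger RNAs of the 10 genes were not analysed here.

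Of 42405 probes on the array, 25664 exceeded background on each array in Cy3 and Cy5 without an outlier spot, and 13812 genes were measured through them. Median spot signals lay between 165 and 189 in Cy3 and between 290 and 314 in Cy5, over median backgrounds of 28 to 29 and 69 to 70, and no spot was saturated. The basal epithelial markers KRT5, KRT14, TP63 and ITGB4 and the epithelial markers EPCAM, CDH1, KRT8 and KRT18 were all measured. Of 4 luminal prostate markers, 2 passed the filter. Of the markers of fibroblasts, endothelial cells and leukocytes, 4 of 9 passed it. None of these markers passed 1.2-fold on both arrays. All 15 probes of the 10 genes passed, with 1 probe each for 7 genes, 2 for ZFP36L1 and 3 each for CCNG2 and NEDD4L. A gene is represented by its brightest probe unless stated otherwise, and ratios are log2 ratios of pre-miR-424 over control.

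In cells with pre-miR-424, 9 of the 10 genes had a ratio above 0 on both arrays, and the tenth, ENDOD1, had opposite signs. The ratios were small apart from that of CCNG2, a cyclin known to restrain the cell cycle, at 1.43-fold. Genes chosen as induced and genes chosen as repressed by Notch1 lay on the same side. The threshold for a change was 1.5-fold, higher on each array or lower on each array, and 0 of the 10 genes passed it, against 1.01% of all measured genes (0.623% higher and 0.391% lower). At 2-fold the count was again 0, against 0.101%, and at 1.2-fold it was 1 (CCNG2), against 7.07%. A ratio above 0 on both arrays, a rule chosen after the ratios were seen, was found for 26.8% of all measured genes, and one below 0 on both arrays for 26.7%. The count of 9 was the same with the authors' log2 ratios (26.8%), with a smaller offset (26.9%) and without background correction (26.9%). It was 6 with log ratios as the scanner gave them (27%) and 4 when each array was only centred on its median (14.6%).

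**Figure D1:**
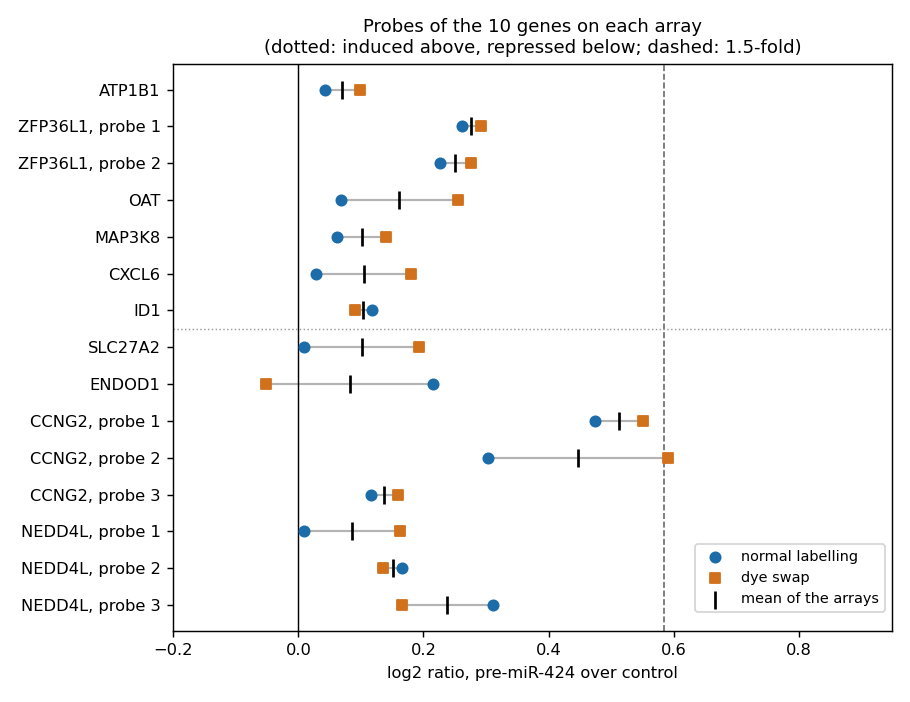
Log2 ratios of pre-miR-424 over control (x axis) for the 15 probes of the 10 genes, one per line, with the array of normal labelling as circles, the dye swap as squares and their mean as a bar; where a gene has several probes, probe 1 is the brightest. Of the 15 probes, 14 lie above 0 on both arrays, and the brighter 2 probes of CCNG2 lie farthest to the right.

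The 6 genes chosen as induced had a median mean ratio of 0.10 (0.06 with normal labelling, 0.16 with swapped dyes), and the 4 chosen as repressed had one of 0.09 (0.11 and 0.18). The difference of these medians was 0.01, less than the SD of 0.068 between the arrays for the median of the induced genes. Over all measured genes the median was −0.0042. The gap separating a gene's 2 ratios, when divided by 2, holds noise and any dye effect of that gene. A dye effect that is the same on both arrays cancels in the mean, so this quantity is not the error of the mean. Its SD was 0.16 for the 13812 genes, 1 value for all intensities, and serves as a rough scale only. Only CCNG2 and ZFP36L1 had a mean ratio beyond 1 such SD, and only CCNG2 was beyond 2. The mean ratios of the other 8 genes lay within 1 such SD, with OAT at 0.997 of it. These comparisons do not test a change. Pearson's correlation of the arrays was 0.207 across the measured genes, and genes are not independent replicates.

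**Figure D2:**
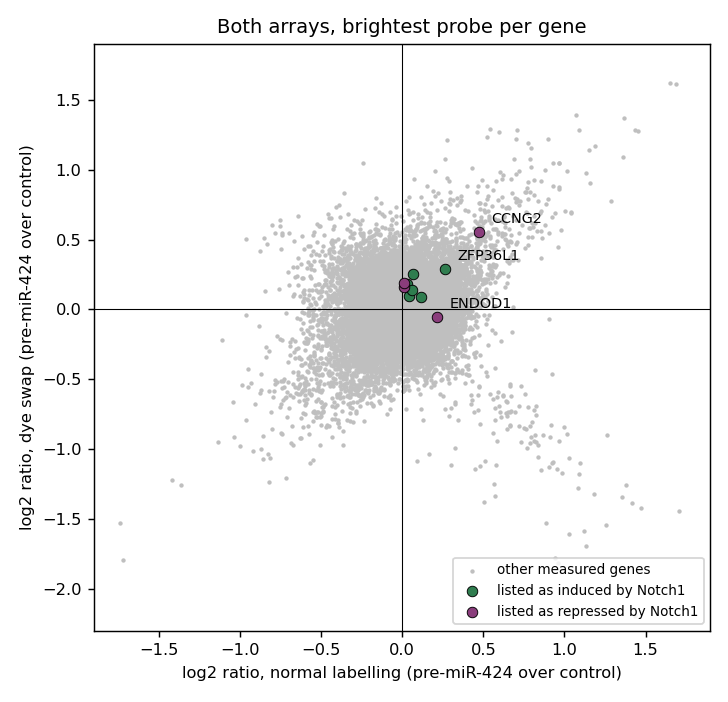
Log2 ratio of pre-miR-424 over control on the normal array (x axis) and on the dye swap (y axis) for each of 13812 measured genes, with the 10 genes in colour. The 10 genes lie close to the centre of the cloud except CCNG2, at 0.47 and 0.55, and ENDOD1 is the one gene of the list below 0 on the swap.

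Cyclin G2 is an unconventional cyclin whose transcript is high in resting or arrested cells. CCNG2 (NM_004354) had a normalized intensity of 2047 in control and 2843 in pre-miR-424 RNA on the normal array. On the swap the intensities were 1772 and 2597. The arrays were not normalized to each other, so intensities are to be compared within an array only. The log2 ratios were 0.47 and 0.55 (mean 0.51, SD 0.055 between the arrays), and 1.40% of the measured genes had a mean ratio as high or higher. A second probe of similar brightness gave 0.30 and 0.59, of which the value on the swap alone passed 1.5-fold. The third probe was dim, with normalized intensities between 157 and 181, and gave 0.12 and 0.16. With normal labelling its 2 spots gave −0.0026 and 0.23, and with swapped dyes 0.32 and −0.0044. By the scanner's own log ratios the dim probe gave 0.17 and 0.37, and without background correction 0.10 and 0.19. All 3 probes had the same sign, while the size rested on the 2 brighter ones, and the mean over the 3 probes was 0.37.

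**Figure D3:**
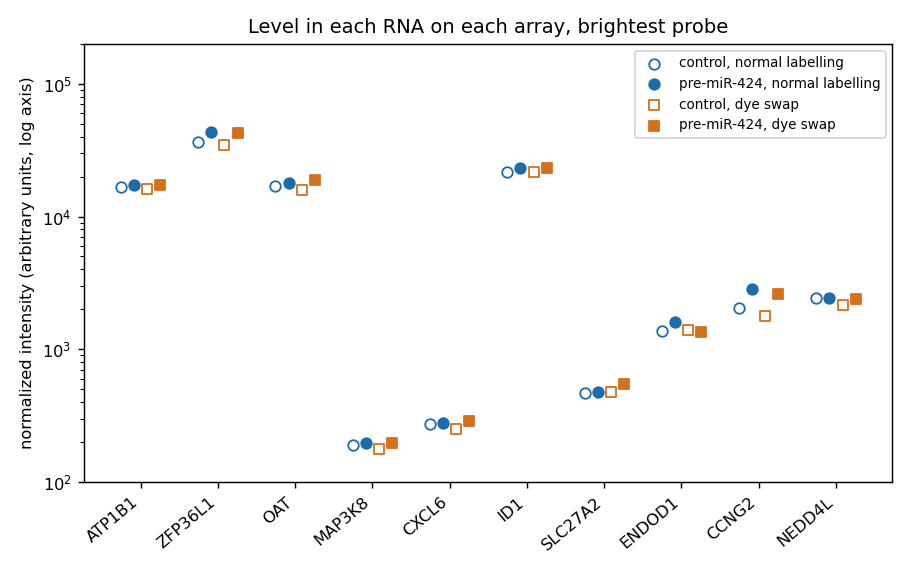
Normalized intensity (log axis, arbitrary units) of the brightest probe of each of the 10 genes in control RNA (open) and pre-miR-424 RNA (filled), with circles for the normal array and squares for the dye swap. Only for CCNG2 is the gap between open and filled symbols easily seen; intensities of different genes come from different probes and are not comparable.

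Among the genes chosen as induced, ZFP36L1 had the highest ratio. It encodes an RNA-binding protein that attaches to AU-rich elements and speeds the decay of messenger RNAs. Its normalized intensity (NM_004926) was 36315 in control and 43531 in pre-miR-424 RNA on the normal array, and 34653 and 42415 on the swap. A ratio as high or higher was found for 6.05% of the measured genes. The log2 ratios were 0.26 and 0.29 (mean 0.28, SD 0.021), and the second probe gave 0.23 and 0.28, so that both probes and both arrays gave nearly the same value. The ratio on the normal array lay just under 1.2-fold (a log2 ratio of 0.263). With median centring in place of the loess fit to intensity, the ratios were 0.72 and −0.26, so the sign then differed between the arrays while the mean was 0.23.

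OAT encodes ornithine aminotransferase, a mitochondrial enzyme that links ornithine to glutamate and proline. Its intensity (NM_000274) was 16983 in control and 17794 in pre-miR-424 RNA on the normal array, and 15901 and 18983 on the swap. The log2 ratios were 0.07 and 0.26 (mean 0.16, SD 0.13), so most of the mean came from the swap. ID1, an inhibitor of basic helix-loop-helix transcription factors, gave 0.12 and 0.09 (NM_002165, mean 0.10, SD 0.020). ATP1B1, the beta 1 subunit of the sodium and potassium pump, gave 0.04 and 0.10 (NM_001677, mean 0.07, SD 0.039). For both genes the arrays were close to each other, and the ratios were small beside the spread between the arrays over all genes. Under median centring the arrays had opposite signs for OAT (0.39 and −0.17), ID1 (0.48 and −0.38) and ATP1B1 (0.36 and −0.32).

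MAP3K8 and CXCL6 were the dimmest genes of the list. MAP3K8 encodes a kinase that activates the MEK and ERK cascade downstream of inflammatory receptors. Its intensity (NM_005204) was 189 in control and 197 in pre-miR-424 RNA on the normal array, and 177 and 195 on the swap. The log2 ratios were 0.06 and 0.14, but the 2 spots on the normal array gave 0.25 and −0.12, so the sign was not settled within that array. CXCL6, a chemokine that attracts neutrophils, had intensities of 272 and 277 on the normal array and 252 and 285 on the swap (NM_002993). Its log2 ratios were 0.03 and 0.18, with less difference between the 2 spots of an array than between the arrays. For such dim probes the added offset draws ratios towards 0.

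Apart from CCNG2, the genes chosen as repressed by Notch1 did not stand out. NEDD4L, a ubiquitin ligase that marks membrane proteins for removal, was measured by 3 probes, of which the brightest (NM_001144967) gave 0.01 and 0.16. The others gave 0.17 and 0.13 (NM_015277) and 0.31 and 0.17 (NM_001144967). All 3 were above 0 on both arrays, with means from 0.09 to 0.24, and the brightest probe had the lowest mean. Under median centring the brightest probe gave 0.15 and −0.10. SLC27A2, which activates and takes up very long chain fatty acids, had intensities of 471 in control and 474 in pre-miR-424 RNA on the normal array and 475 and 543 on the swap (NM_003645). Its log2 ratios were 0.01 and 0.19 (mean 0.10, SD 0.13), so the difference was seen on the swap. ENDOD1, a protein with an endonuclease domain, gave 0.22 and −0.05 (NM_015036, mean 0.08, SD 0.19), so its sign differed between the arrays.

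Each gene was set beside close relatives or partners in its pathway, from a list of 57 genes of which 49 were measured. Of these, 9 were higher and 21 lower on both arrays and 19 had opposite signs, with a median of −0.09. The shares over all measured genes were 26.8% higher and 26.7% lower. At 1.2-fold on both arrays, which 3.57% of all measured genes passed as higher and 3.5% as lower, 1 relative was higher and 8 were lower, against 1 (CCNG2) and 0 of the 10 genes. These counts describe the lists, and no test compared them.

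**Figure D4:**
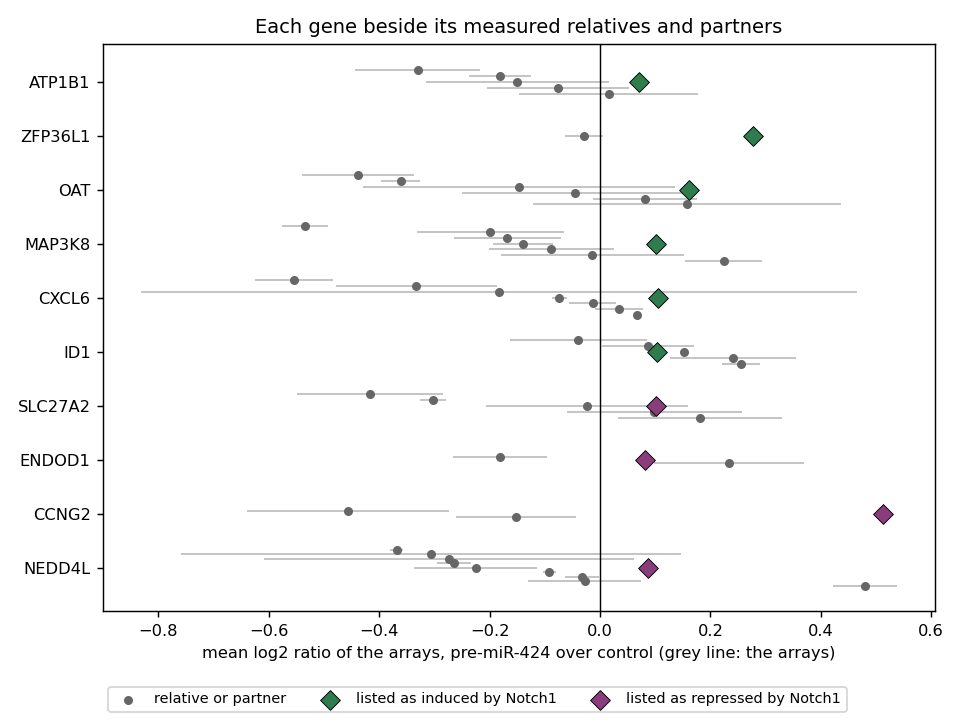
Mean log2 ratio of pre-miR-424 over control (x axis) for the 10 genes (diamonds) and for their measured relatives or partners (grey points, with a line between the values of the arrays), one gene per row. CCNG2 at 0.51 lies on the other side of 0 from CCNG1 and CCNI, and ID2 and ID3 lie on the same side as ID1.

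The cyclin relatives of CCNG2 lay on the other side of 0. CCNG1, a p53-responsive cyclin, gave −0.64 and −0.27 (mean −0.46) and −0.36 as the mean of its second probe. CCNI gave −0.26 and −0.04, and under median centring its arrays had opposite signs (0.13 and −0.54), whereas CCNG1 stayed below 0 on both. ID2 and ID3 lay on the same side as ID1 itself, with 0.22 and 0.29 for ID2 and 0.36 and 0.13 for ID3. Both probes of ID2 were dim (mean log2 intensities of 7.99 and 7.01), and the second had a mean ratio of 0.20. ID4 was not measured. Under median centring ID2 stayed above 0 on both arrays and ID3 did not (0.59 and −0.22). Of the transcription factors that ID proteins bind, TCF4 gave 0.16 and 0.15 and TCF12 had opposite signs.

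CXCL6 lies on chromosome 4 between CXCL8 and PF4V1, in a cluster of chemokine genes. Its neighbours CXCL1 and CXCL3 were lower, with −0.48 and −0.19 for CXCL1 and −0.63 and −0.48 for CXCL3, and the second probe of CXCL1 had a mean of −0.55. CXCL2 gave −0.06 and 0.03 (0.10 as the mean of its second probe), CXCL5 gave 0.08 and −0.01, and CXCL8 had opposite signs at −0.83 and 0.46. PPBP was higher on both arrays, at 0.06 and 0.07, but by a dim probe (mean log2 intensity of 6.94). The measured chemokines of the cluster did not share a direction, while CXCL1 and CXCL3 stayed below 0 on both arrays under median centring too. Transcripts of CXCL1, CXCL2 and CXCL3 are closely similar, and whether their probes bind one another's RNA was not tested.

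Of the measured partners, 0 were higher and 2 lower on both arrays out of 5 for ATP1B1, 0 and 2 out of 6 for OAT, and 1 and 4 out of 7 for MAP3K8. ATP1B3, another beta subunit of the pump, had opposite signs. Among enzymes that share ornithine or proline metabolism with OAT, ODC1 gave −0.54 and −0.34 and ALDH18A1 gave −0.33 and −0.40. In the kinase cascade of MAP3K8, MAPK3 gave −0.49 and −0.58, whereas MAP2K1 gave 0.29 and 0.15. ZFP36, the one measured relative of ZFP36L1, gave −0.06 and 0.01. The ratio of ZFP36L1 was therefore not shared by ZFP36 on these arrays.

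NEDD4, the closest relative of NEDD4L, gave 0.42 and 0.54 (mean 0.48), the highest ratio among the 49 relatives. It exceeded NEDD4L on both arrays, by any of the 3 probes of NEDD4L. Of the other measured ligases of the family, WWP1 (−0.34 and −0.11), WWP2 (−0.36 and −0.38) and SMURF2 (−0.30 and −0.23) were lower on both arrays, and ITCH and SMURF1 had opposite signs. Among the relatives of SLC27A2, SLC27A4 gave −0.28 and −0.55 and SLC27A6 gave −0.33 and −0.28, and SLC27A1 gave 0.33 and 0.03 (0.36 as the mean of its second probe). For ENDOD1, ENDOG gave 0.37 and 0.10 and EXOG gave −0.27 and −0.10 by its brightest probe and opposite signs by the second. With all alternatives that used both arrays, 45 of the 49 relatives kept the sign of their mean ratio. Under median centring the arrays had opposite signs for MAP2K1 (0.53 and −0.19), TCF4 (0.25 and −0.05), SLC27A1 (0.42 and −0.16) and ENDOG (0.53 and −0.19). The sign was still the same on both arrays for NEDD4, MAPK3, ODC1, ALDH18A1, WWP1, WWP2, SMURF2, SLC27A4 and SLC27A6.

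The Notch pathway itself showed no common direction. Of 35 genes listed, 30 were measured, of which 8 were higher and 9 lower on both arrays and 13 had opposite signs, with a median of −0.01. Of all measured genes, 26.8% were higher and 26.7% lower on both arrays. At 1.2-fold on both arrays 0 were higher and 3 were lower, against 3.57% and 3.5% of all measured genes. These 3 were the receptor NOTCH2 (−0.66 and −0.55), the gamma-secretase subunit APH1B (−0.31 and −0.49) and LFNG (−0.61 and −0.58), a glycosyltransferase that modifies Notch receptors. The second probe of NOTCH2 had a mean of −0.03 and that of LFNG one of −0.20, so the sizes depended on the probe. NOTCH1, the receptor behind the choice of the 10 genes, gave 0.05 and 0.03, and its second probe had opposite signs, with a mean of −0.12. Its mean ratio changed sign with 2 alternatives. RBPJ gave 0.24 and 0.33. The effector HES1 had opposite signs at −0.37 and 0.33. NRARP, another target of the pathway, gave 0.48 and 0.26 by its brightest probe, and its second probe had a mean of −0.05. That second probe was dim, with a mean log2 intensity of 6.97 against 12.40 for the brightest. Under median centring the brightest probe of NRARP gave 0.66 and −0.05.

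As RBPJ carries Notch activity to the DNA, promoter windows of RefSeq (GRCh38.p14, 300 bases around a start site) were searched for the core of its motif, TGGGAA, on both strands. All 10 genes had at least 1 window. The motif was in the windows of 4 of the 10 genes, against 28.1% of 27305 genes, and in 6 of 17 windows, against 24.0% of 35116. A gene with more windows has more room for a match, and NEDD4L had 5 windows and MAP3K8 3. Windows of a gene can overlap, and a single site of MAP3K8 was counted in more than 1 of them. One stretch per gene is printed, on the strand that reads TGGGAA, to show which genes carry it. Capitals mark the motif.
MAP3K8, chr10:30434483-30434510, plus strand: aaactctggcgTGGGAAgaggtgggggc
CXCL6, chr4:73836518-73836545, minus strand: gggcgggaggaTGGGAAttggtggggtg
SLC27A2, chr15:50182065-50182092, plus strand: cagactcgagcTGGGAAgtggccgaggc
NEDD4L, chr18:58255273-58255300, plus strand: aaagcagcagcTGGGAAggtgctgtttc
The longer form GTGGGAA, which contains the first motif, was found for MAP3K8 alone, 1 of the 10 genes, against 7.62% of all genes. The 4 genes with a match had mean log2 ratios of 0.09 to 0.10, while CCNG2 and ZFP36L1, with the highest ratios, had no match in their windows, which says only that these letters are not there. A match is only a run of letters and does not show binding.

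**Figure D5:**
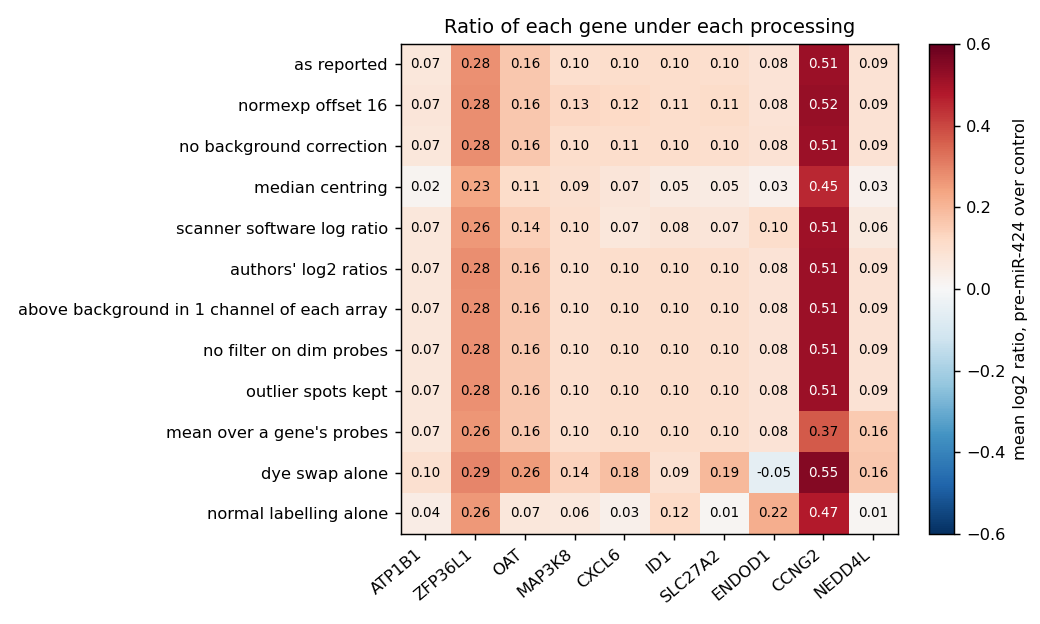
Mean log2 ratio of pre-miR-424 over control for each of the 10 genes (columns) under each way of processing the arrays (rows), with the colour scale from −0.6 to 0.6. CCNG2 stays between 0.37 and 0.55 and ZFP36L1 between 0.23 and 0.29, and the one value below 0 is that of ENDOD1 on the dye swap alone.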

How the data were processed

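RNA of RWPE-1 cells with pre-miR-424 or control was compared on 2 two-colour arrays, a dye swap that counted as 1 replicate. The scanner files deposited by the authors hold median spot and background intensity per channel, not normalized, and log10 ratios from the scanner software. A log2 ratio table was deposited by the authors as well, without its steps or direction (the submitters' processing notes name limma). Its columns had Pearson correlations of 0.991 and 0.988 over 42405 probes with the Cy5 over Cy3 ratios computed here, and medians of 0.0236 and 0.0355. They were log2 ratios that had not been turned on the swap.

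The normexp method of limma 3.58.1, run in R 4.3.3, corrected for background, and the offset of 50 added to it understates the ratios of dim probes. The mean spot signal was not used here, so the median signal was taken. Control spots were left out, each array was normalized by loess, replicate spots were averaged, and the sign of the swap was reversed. On each array a probe had to exceed background in Cy3 and in Cy5, as 25983 did, and 319 of these were left out for an outlier spot. RefSeq accessions were given for 27134 probes, of which 25771 (95.0%) could be named from a RefSeq gene table (GRCh38.p14), used for names and neighbours only. A gene counted as changed if each array passed 1.5-fold with one sign. All 10 genes are named with every probe, the relatives where they stand beside a gene, and the Notch pathway genes past 1.2-fold. NOTCH1, RBPJ, HES1 and NRARP were named in addition, after their values were seen. The members and lists were chosen with earlier results of these data known. The steps were tested on simulated data with changes larger than the ratios of the 10 genes. The simulation held no dye effect of single genes, and it does not cover ratios as small as these. Python 3.11.15 with pandas 2.3.3 and numpy 2.4.6 was used for counts.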

Additional observations from a re-analysis of the deposited data

How the results depend on the processing

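With 11 alternatives (a smaller offset or none of the background correction, median centring, the authors' table, log ratios as the scanner gave them, 2 weaker filters on dim probes, outlier spots kept, probes of a gene averaged, and each array alone) 0 of the 10 genes passed 1.5-fold. With the processing as reported and other thresholds, 0 passed 2-fold and 1 passed 1.2-fold on both arrays. The mean ratios of 9 genes stayed above 0 in all 11, and that of ENDOD1 was below 0 on the swap alone (−0.05). The 2 weaker filters and the kept outlier spots could not alter any of the 10 genes, since all their probes had already passed. Averaging of probes could alter only ZFP36L1, CCNG2 and NEDD4L. Genes with ratios above 0 on both arrays numbered 6 with the scanner software's log ratios (27% of all measured genes). They numbered 4 under median centring (14.6%) and 9 with each other alternative that used both arrays. This count was chosen after the data were seen. An array taken alone asks for 1 sign only, and 9 genes were then above 0 with swapped dyes and 10 with normal labelling. The shares for both arrays do not apply to these single-array counts, and a share for 1 array was not counted. As reported, the median of all measured genes lay near 0 on each array (0.0011 with normal labelling, −0.00035 with swapped dyes). Median centring moved the median of all genes to 0.13 with normal labelling and −0.23 with swapped dyes, and the median of the 4 genes chosen as repressed from 0.09 to 0.038. With each array alone this median ranged from 0.11 to 0.18, that of the 6 genes chosen as induced from 0.06 to 0.16, and that of all 10 from 0.06 to 0.17. The cause of these shifts was not tested. Signal over background limits MAP3K8, CXCL6 and the third probe of CCNG2. Ratios were taken within an array, so each was already paired.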
